A study of Mus musculus with 18 samples.

Results

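The 209 transcript identifiers described here were lower in every one of 9 hypoxia libraries of mouse primary chondrocytes than in any of 9 normoxia libraries. They were chosen by 4 conditions on measured values, in a table of 63244 UCSC transcript identifiers. The values are CPM, which is an identifier's reads scaled to a common total of reads assigned to a single identifier in each library. The mean over 18 libraries was 2 CPM or more, the highest hypoxia value lay below the lowest normoxia value, and the ratio of the hypoxia mean to the normoxia mean, with 0.5 CPM added to each, was 0.5 or less. The last condition asked that the ratio of IL-6 to untreated means at 12 h lay above 0.67 and below 2 in at least 1 oxygen condition. It removed none of the identifiers that met the first 3. Because these values chose the identifiers, their levels and ratios between oxygen conditions and with IL-6 are a description and carry no test. The change over time was not a condition of the choice and was tested, although the choice used libraries of both times.

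Cartilage has no blood vessels, and chondrocytes, the cells that make its collagen and proteoglycan matrix, live at low oxygen in the body. At low oxygen the prolyl hydroxylases that mark hypoxia-inducible factors for degradation are less active, and the stabilised factors raise genes of glycolysis, glucose uptake and angiogenesis. Transcripts that are lower at low oxygen are a separate and more mixed class, in which direct repression, altered growth and altered differentiation are all known to take part in various cell types. Interleukin-6 (IL-6) is an inflammatory cytokine found at raised levels in diseased joints. It signals through its receptor and the transcription factor STAT3.

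All libraries came from wild type mouse primary chondrocytes labelled as taken from cartilage. Hypoxia was 1% oxygen and normoxia, the usual culture condition, 21%. At each oxygen level 3 libraries were made from cells given IL-6 for 12 h at 100 ng/ml, 3 from untreated cells at 12 h and 3 from untreated cells at 0 h. The 12 h were spent in serum-free medium after culture in medium with fetal calf serum, so 12 h and 0 h differ in serum as well as in time, and the 2 cannot be told apart. The protocol text names IL-6 or IL-6R, while the sample labels name IL-6 alone, and the addition of the receptor is not settled by them. Whether replicates 1 to 3 are separate animals or cultures is not stated in the labels. A p-value here therefore reflects only how much these libraries vary, and that variation may be technical. In bulk RNA, fewer cells of a type and less RNA per cell cannot be told apart.

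Neither gene symbols nor positions accompany the identifiers, and no table used here maps UCSC identifiers. No gene, pathway, sequence or marker of chondrocytes is therefore given, and the labelled cell type was not checked against markers. Only uc009vey.1, the member with the highest mean CPM, and uc009gyk.2, the member with the lowest ratio, are printed by identifier. Other members are given by their rank in mean CPM, from 1 for the highest. CPM is not divided by transcript length, so this order is one of reads and not of transcript copies. Several identifiers can belong to 1 gene, so 209 is not a number of genes.

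Assigned counts per library were 3088280 to 10241162 in hypoxia and 5012398 to 9735866 in normoxia. Reads that overlapped several identifiers were assigned to none and made up 40.6% to 48.0% of uniquely aligned reads in hypoxia libraries and 43.5% to 50.3% in normoxia libraries, so members that overlap other transcripts were measured from part of their reads. Among hypoxia libraries, the 3 of replicate 3 stood apart, with 21.2% to 30.3% of their counts in their 10 highest identifiers. That share was 13.7% to 15.7% in the other 6 hypoxia libraries and 15.1% to 22.2% in normoxia libraries. Only hypoxia replicate 3 at 0 h, at 30.3%, lay above the normoxia range. In hypoxia each replicate number was also a sequencing lane (lane 3, 6 or 8), so replicate and lane cannot be told apart there. In normoxia the same held for replicate 3, whose 3 libraries were the only ones in lane 7. For replicate 3, oxygen and lane therefore cannot be told apart. Lane 3 held 3 libraries of each oxygen condition.

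The choice ran through 10072 identifiers with a mean of 2 CPM or more. Of these, 501 (4.97%) were lower in all hypoxia libraries than in any normoxia library, and 209 of the 501 had a ratio of 0.5 or less. The member nearest to the ratio limit stood at 0.4997, and the identifier just outside it at 0.502. The lowest mean among members was 2.13 CPM, and the nearest identifier below the limit that met the other conditions had 1.60 CPM. The closest member had a highest hypoxia value 0.999 times its lowest normoxia value. The nearest excluded identifier had 1.00 times. A further 130 identifiers had a ratio of 0.5 or less but overlapped between oxygen conditions. Another 292 did not overlap but had a ratio above 0.5, of which 121 lay between 0.5 and 0.6.

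The members stood at a median of 0.393 times their normoxia level in hypoxia, with quartiles of 0.290 and 0.449, against a median of 0.991 over all 10072 identifiers. In 33 members the ratio was 0.25 or less, in 64 it was 0.33 or less, and in 52 it lay above 0.45. The members therefore crowded towards the limit that chose them, with a tail that reached 0.0985. They spanned the range of read levels: 40 had a mean under 5 CPM, 113 had 5 to 50 CPM and 56 had 50 CPM or more. Their median mean was 16.4 CPM, and that of all 10072 identifiers was 14.3 CPM. In 13 members (6.22%, beside 1.08% of all identifiers) at least 1 hypoxia library held no read. That every normoxia library held reads of all 209 follows from the rule.

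**Figure D1:**
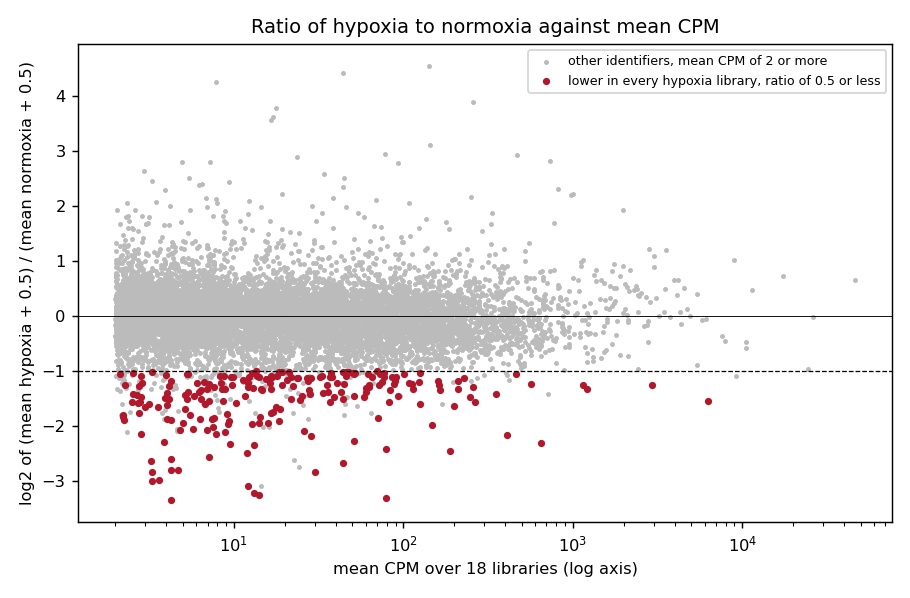
Ratio of the hypoxia mean to the normoxia mean (vertical axis, log2, 0.5 CPM added to each mean) against mean CPM over 18 libraries (horizontal log axis), with 1 point per identifier of mean 2 CPM or more. The 209 members, in red, lie below the dashed line at a ratio of 0.5 over the whole range of read levels from 2.13 to 6245 CPM, and the grey points under it overlapped between oxygen conditions.

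Summed over members, the mean level was 11516 CPM in hypoxia and 31216 CPM in normoxia. The members took 0.950% to 1.46% of assigned counts in hypoxia libraries (mean 1.15% ± 0.198, SD, n = 9) and 2.89% to 3.52% in normoxia libraries (mean 3.12% ± 0.188, SD, n = 9). A few identifiers carried most of this: uc009vey.1 alone held 31.1% of the summed difference, the 3 members with the largest differences 48.6%, and the 10 largest 67.3%. Without the 10 members highest in mean CPM, the remaining 199 took 0.389% ± 0.0347 of counts in hypoxia and 1.03% ± 0.0607 in normoxia (SD, n = 9 each). That every such sum was lower in hypoxia follows from the rule, and only the sizes are a description.

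The identifier uc009vey.1 had the highest mean CPM of the 209. In hypoxia it stood at 4620.5, 2160.2 and 4609 CPM with IL-6, at 3633, 2389 and 2294 CPM untreated at 12 h, and at 3526, 3341 and 2066 CPM at 0 h. In normoxia it stood at 8339.9, 9211 and 9592 CPM with IL-6, at 6436, 9405 and 10456 CPM untreated at 12 h, and at 11351, 9981 and 9002 CPM at 0 h. The highest hypoxia library, replicate 1 with IL-6, lay well under the lowest normoxia library, replicate 1 untreated at 12 h. The mean was 3182 ± 1010.0 CPM in hypoxia and 9308 ± 1384 CPM in normoxia (SD, n = 9 each), a ratio of 0.342 that placed it only 74th from the lowest. With IL-6 in hypoxia, replicates 1 and 3 were high and replicate 2 was low, so the spread among those 3 libraries was wide.

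The identifier uc009gyk.2 had the lowest ratio, 0.0985, and rested on few reads. In hypoxia it had 0, 0.148 and 0.561 CPM with IL-6, 0.217, 0.941 and 0 CPM untreated at 12 h, and 0.691, 0.280 and 0.324 CPM at 0 h. In normoxia it had 7.45, 7.39 and 7.79 CPM with IL-6, 7.77, 11.3 and 4.48 CPM untreated at 12 h, and 3.99, 16.0 and 7.09 CPM at 0 h. These levels came from 20 reads in all 9 hypoxia libraries together, with 0 to 6 in each, and from 606 reads in the 9 normoxia libraries, with 20 to 151 in each. A library without a read still allows up to 3 counts, or 0.293 to 0.971 CPM depending on library depth (counting error alone), so the differences among the hypoxia libraries of this identifier are at the limit of detection.

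**Figure D2:**
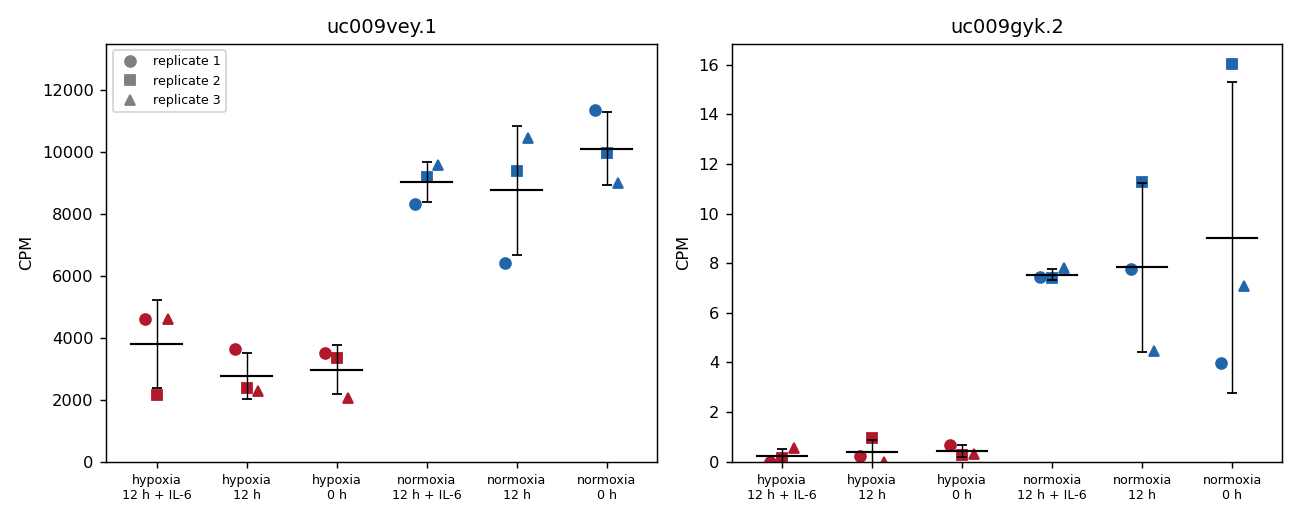
CPM of uc009vey.1 (left) and uc009gyk.2 (right) in each of the 18 libraries (vertical axes start at 0), by oxygen and treatment, with replicate numbers as symbols, the group mean as a horizontal line and the SD (n = 3) as bars drawn no lower than 0. For both, all 9 hypoxia libraries lie under all 9 normoxia libraries, with means of 3182 and 9308 CPM for the first and 0.351 and 8.14 CPM for the second.

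Members ranked 2 to 10 by mean CPM had ratios from 0.203 to 0.484. The member ranked 2 had a lowest, median and highest value of 1192, 1470.3 and 2502 CPM in hypoxia, against 3375, 4199 and 5375 CPM in normoxia. The member ranked 5 had 140.5, 219 and 353 CPM in hypoxia, against 653, 1228 and 1386 CPM in normoxia, the lowest ratio of these 9 at 0.203. Its normoxia values were split by replicate, with 701 CPM with IL-6, 653 CPM untreated at 12 h and 757 CPM at 0 h in replicate 3, and 1068 to 1386 CPM in the 6 libraries of replicates 1 and 2. The member ranked 8 had 85.6, 146 and 236 CPM in hypoxia, against 596, 640.3 and 834 CPM in normoxia, a ratio of 0.225. The member ranked 7 had the tightest hypoxia values of these, at 265, 300.0 and 346 CPM, against 428, 672 and 818 CPM in normoxia, and the highest ratio at 0.484.

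Of the members with low ratios, the one ranked 36 in mean CPM combined a ratio of 0.102, the second lowest of all, with a level well above the limit of detection. It had a lowest, median and highest value of 7.71, 10.8 and 27.3 CPM in hypoxia, against 90.2, 139 and 226 CPM in normoxia. Its highest hypoxia value was 0.303 times its lowest normoxia value. Within hypoxia replicate 2 was the highest in each treatment state, at 17.6 CPM with IL-6, 24.5 CPM untreated at 12 h and 27.3 CPM at 0 h. The member ranked 112, with a ratio of 0.106, had 2.29 ± 1.35 CPM in hypoxia against 25.9 ± 8.71 CPM in normoxia. The member ranked 76, with a ratio of 0.141, had 7.10 ± 2.08 CPM in hypoxia against 53.4 ± 8.54 CPM in normoxia (SD, n = 9 each).

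**Figure D3:**
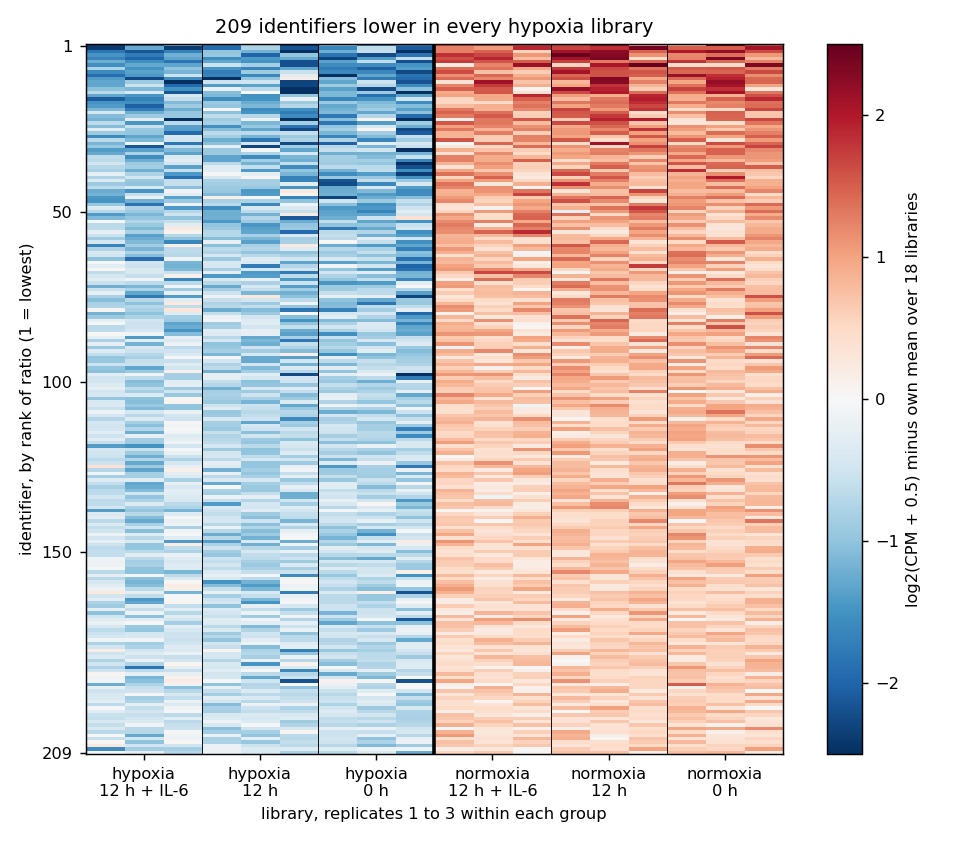
Level of each of the 209 members (rows, ordered by ratio with the lowest on top) in each of the 18 libraries (columns), as log2(CPM + 0.5) minus the identifier's own mean, in blue where lower and red where higher. Most hypoxia cells are blue and most normoxia cells red, with 61 of 1881 hypoxia values above and 11 of 1881 normoxia values below the identifier's own mean, and the contrast fades from the ratio of 0.0985 in the top row towards 0.4997 in the bottom row.

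The lower level was present in each of the 3 treatment states. The median ratio over members was 0.431 at 12 h with IL-6, 0.368 at 12 h untreated and 0.361 at 0 h, beside 0.993, 1.02 and 0.923 over all 10072 identifiers. By the rule, all 209 were without overlap in each state, beside 11.2% of all identifiers with IL-6, 15.3% untreated at 12 h and 19.2% at 0 h. Nothing is read from those counts. The ratio was 0.5 or less in 161 members with IL-6, in 191 untreated at 12 h and in 195 at 0 h, and in 145 members in all 3 states. For 25 members the lowest of the 3 ratios was that with IL-6, for 76 that untreated at 12 h and for 108 that at 0 h, which is 12.0%, 36.4% and 51.7% of members, beside 24.5%, 24.5% and 51.0% of all identifiers.

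With IL-6, members were on the whole slightly higher in hypoxia and slightly lower in normoxia. The median ratio of IL-6 to untreated at 12 h was 1.05 in hypoxia and 0.918 in normoxia, beside 0.977 and 0.988 over all 10072 identifiers. The ratio was higher in hypoxia than in normoxia in 154 members (73.7%), beside 49.5% of all identifiers. Since the rule uses these libraries and these ratios, this difference was not tested. Single members ranged from 0.474 to 2.43 in hypoxia and from 0.546 to 1.98 in normoxia, and 194 of 209 lay within 0.67 to 2 in both. The member ranked 100 was the one near the upper end in both, at 1.93 in hypoxia and 1.98 in normoxia.

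By library, the same pattern was uneven among replicates. The members' median level, as log2(CPM + 0.5) minus each member's own mean, was −0.84 to −0.51 in hypoxia libraries and 0.62 to 0.80 in normoxia libraries. In hypoxia, the library with IL-6 stood above the untreated 12 h library of the same number by 0.14 in replicate 1 and 0.20 in replicate 3, while in replicate 2 the difference was −0.06. In normoxia the differences were −0.07, −0.09 and −0.11 in replicates 1, 2 and 3. All are smaller than the gap between the highest hypoxia library, at −0.51, and the lowest normoxia library, at 0.62. That gap follows from the rule and is no measure of whether the IL-6 differences matter.

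**Figure D4:**
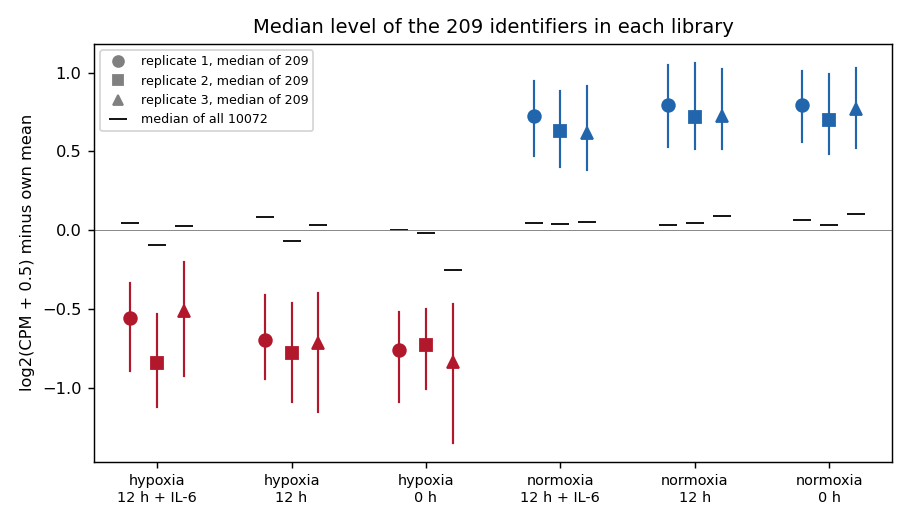
Median over the 209 members of log2(CPM + 0.5) minus the member's own mean (vertical axis) in each library, with lines from the lower to the upper quartile of members and black dashes for the median of all 10072 identifiers. Hypoxia medians, from −0.84 to −0.51, and normoxia medians, from 0.62 to 0.80, do not overlap, which follows from the rule. The black dashes stay near 0 except in hypoxia replicate 3 at 0 h.

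Because lane and oxygen overlap in part, the ratios were also taken within lanes. In lane 3, with 3 libraries of each oxygen condition, the median ratio of members was 0.383, beside 1.02 over all identifiers, and 183 members were at 0.5 or less. The lane held hypoxia replicate 1 in each treatment state, normoxia replicates 1 and 2 at 0 h and normoxia replicate 2 untreated at 12 h. It held no normoxia library with IL-6, so this ratio mixes oxygen with treatment state. Within a state the lane 3 median ratio was 0.346 at 0 h and 0.382 untreated at 12 h, beside 0.965 and 1.05 over all identifiers. Within lane 6, 1 hypoxia and 1 normoxia library with IL-6 gave a median ratio of 0.370. That all 209 members had a ratio below 1 in both lanes was fixed by the rule. Without the hypoxia libraries of replicate 3, the median ratio of members was 0.376, with 195 at 0.5 or less. Hypoxia replicates 1, 2 and 3 alone, each against all normoxia libraries, gave median ratios of 0.392, 0.355 and 0.398. These medians are parts of the values that chose the members, so they show how the ratio was spread over the libraries and are no further support for it.

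The replicates were also compared for how often each was the lowest. Replicate 3 of hypoxia was lowest in all 3 treatment states in 26 members (12.4%), beside 26.3% of all 10072 identifiers. Replicate 3 of normoxia was lowest in all 3 states in 43 members (20.6%), beside 7.65% of all identifiers. Replicate 3 was lane 8 throughout hypoxia and lane 7 throughout normoxia, so replicate and lane cannot be told apart in either. Since the rule compares the highest hypoxia with the lowest normoxia library, the choice itself acts on the spread among replicates, and its part in these shares was not tested.

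UCSC identifiers carry letter codes, and consecutive codes were examined because members could come in runs. There were 5 runs of members with directly consecutive codes, 1 of 3 members and 4 of 2, so 11 of 209 members stood beside another member. The run of 3 held the members ranked 1, 3 and 6, with means of 3182 ± 1010.0, 689 ± 169.6 and 338 ± 85.4 CPM in hypoxia, against 9308 ± 1384, 1725 ± 298 and 791 ± 112 CPM in normoxia (SD, n = 9 each). It sat in a stretch of 8 consecutive codes with reads, around uc009vey.1, whose ratios in code order were 1.66, 0.487, 0.601, 0.342, 0.399, 0.428, 0.619 and 0.523. Of those 8, 7 were lower in hypoxia and 1 was higher, and 3 met the rule.

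Among all neighbours in code with a mean of 2 CPM or more, members included, 15 of 95 (15.8%) were without overlap and lower in hypoxia, beside 4.97% of all identifiers. The 84 neighbours that were not members had a median ratio of 0.859, beside 0.998 over the 9863 identifiers that were not members. Of these neighbours 65.5% had a ratio below 1, beside 50.4% of identifiers that were not members, and 7.14% a ratio of 0.5 or less, beside 1.32%. Without overlap and lower were 4 of 84 (4.76%), beside 292 of 9863 (2.96%). These differences were not tested. Which neighbours in code belong to 1 gene cannot be read from the table. For 121 members neither neighbour reached 2 CPM.

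The rule did not compare 12 h with 0 h, but its condition of no overlap covered libraries of both times. It therefore left out identifiers whose change over time made the oxygen conditions overlap. The shares of members called are thus not independent of the choice. Untreated cells at 12 h were set against those at 0 h in each oxygen condition, together with the difference between the 2 changes, in a model fitted to 13432 identifiers that included all 209 members. Fitted with 1 mean per group and no pairing, edgeR's quasi-likelihood test called no member at a Benjamini-Hochberg adjusted p under 0.05 in hypoxia (0% of all tested identifiers called), in normoxia (0.00744%) or for the difference (0%). At an unadjusted p under 0.05 there were 13 members in hypoxia (6.22%, beside 4.65% of all tested identifiers), 4 in normoxia (1.91%, beside 0.804%) and 3 for the difference (1.44%, beside 1.94%). DESeq2 called 0 members in each (0.00651% of all identifiers called in hypoxia, 0.00651% in normoxia and 0% for the difference). In simulated counts for hypoxia, edgeR without a block called 14% of 2-fold and 77% of 4-fold changes between 0 h and 12 h. An absent call here is thus no sign of a stable level. Over members the median log2 change was −0.08 in hypoxia, beside 0.02 over all tested identifiers. In normoxia it was 0.04, beside 0.01.

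The sample labels use the same replicate numbers in both oxygen conditions. With 1 block per number across oxygen conditions, the test again called 0 members in hypoxia, in normoxia and for the difference. Same-numbered libraries deviated together in every pair within an oxygen condition but not in every pair between them, and with the replicate number within oxygen as a block the same test called 8 members in hypoxia, 1 in normoxia and 1 for the difference. Of the 8 called in hypoxia (3.83% of members), 6 fell and 2 rose, beside 1.89% of all tested identifiers called. In normoxia 1 member fell, beside 0.141% of identifiers, and the 1 call for the difference stood beside 0.112%. The calls depended on the libraries. Without replicate 1 in every group this block called 1 member in hypoxia (0.123% of all identifiers), 0 in normoxia (0.058%) and 0 for the difference (0.00725%). Without replicate 2 it called 3 (0.691%), 0 (0.0873%) and 0 (0.0364%). Without replicate 3 it called 12 (1.94%), 5 (0.475%) and 6 (0.505%), and the balance in hypoxia turned round, with 9 members that rose and 3 that fell, where all 3 replicates gave 2 and 6. Among the 8 members called in hypoxia with all replicates, 1, 3 and 4 were called again without replicate 1, 2 and 3. With the block across oxygen conditions and lane as a further term, 3 of the 8 were called in hypoxia (0.35% of all identifiers), 0 in normoxia (0.0223%) and 0 for the difference (0.00744%). All 8 kept their sign in every setting run.

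The member ranked 8 had the lowest adjusted p of the 8 in hypoxia. In hypoxia it stood at 108, 159.6 and 85.6 CPM at 12 h, against 155, 236 and 132 CPM at 0 h, lower at 12 h in each replicate number. In normoxia it stood at 596, 834 and 640.3 CPM at 12 h, against 686, 635 and 599 CPM at 0 h, higher in replicates 2 and 3 and lower in replicate 1. With the block it fell in hypoxia by 0.67 on the log2 scale (SE 0.10, adjusted p = 0.000452, edgeR). Its change differed between hypoxia and normoxia by −0.79 (SE 0.14, adjusted p = 0.00852, edgeR). Without the block the difference was −0.77 (SE 0.41) with an unadjusted p of 0.0750. With the block but without replicate 1, 2 or 3, its adjusted p for the difference was 0.303, 0.115 and 0.0604, so that call rested on all 3 replicates.

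The 2 members that rose in hypoxia were ranked 106 and 67. The member ranked 106 stood at 11.5, 10.0 and 5.02 CPM at 12 h, against 3.73, 4.20 and 1.94 CPM at 0 h, and its log2 change was 1.37 (SE 0.25, adjusted p = 0.00307, edgeR with the block). It stayed lower in hypoxia than in normoxia, where it had 38.5, 29.8 and 20.8 CPM at 12 h and 21.7, 27.2 and 19.4 CPM at 0 h. The member ranked 67 stood at 26.8, 28.1 and 28.7 CPM at 12 h, against 13.5, 16.5 and 16.5 CPM at 0 h (log2 change 0.78, adjusted p = 0.0249, edgeR with the block). The member ranked 91 was the one that fell in normoxia, with 20.9, 24.7 and 25.5 CPM at 12 h, against 38.3, 37.9 and 44.0 CPM at 0 h (log2 change −0.74, adjusted p = 0.0237, edgeR with the block). For each of these 3 members the 12 h and 0 h libraries did not overlap in the oxygen condition where it was called. The calls came from these same libraries, so this is a description and no further support for them.

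The other 5 members that fell in hypoxia with the block were ranked 9, 21, 24, 42 and 45, with log2 changes from −0.69 to −0.36. The member ranked 9 (adjusted p = 0.0447, edgeR with the block) was lower at 12 h in replicates 1 and 2 only. In replicate 3 it stood at 233.9 CPM at 12 h, against 214.7 CPM at 0 h. The member ranked 21 had the lowest adjusted p of these 5, 0.00360 (edgeR with the block). It stood at 45.9, 38.1 and 52.1 CPM at 12 h, against 64.4, 53.8 and 78.4 CPM at 0 h. The identifier uc009vey.1 was not called. Its log2 change was −0.21 in hypoxia and −0.20 in normoxia without the block, with an adjusted p of 1.00 for each (edgeR).

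**Figure D5:**
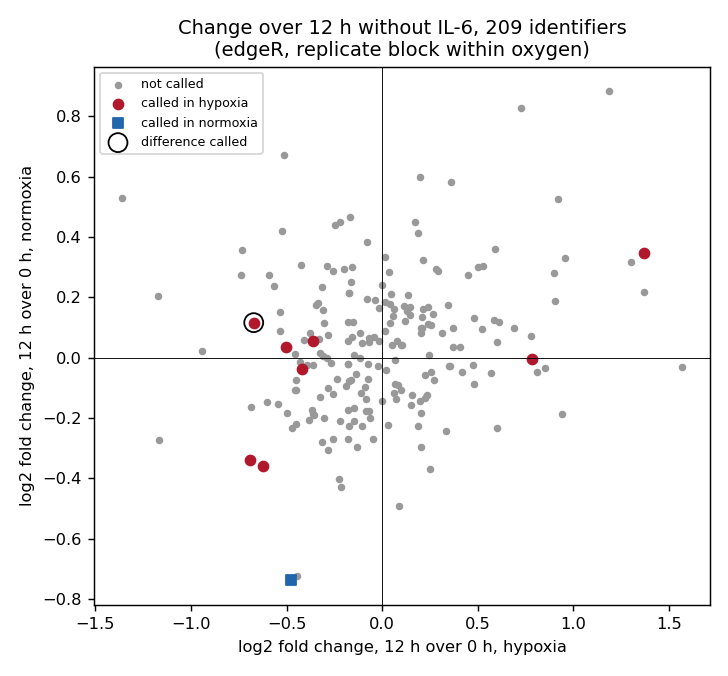
Log2 fold change at 12 h over 0 h in untreated cells for each of the 209 members, in hypoxia (horizontal axis) and normoxia (vertical axis), from edgeR with the replicate number within oxygen as a block. Red points mark the 8 members called in hypoxia, the blue square the 1 called in normoxia and the ring the member ranked 8, whose change differed by −0.79, while grey points were not called.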

How the data were processed

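Total RNA was depleted of ribosomal RNA and sequenced as single-end reads of 50 bp, per the labels' protocols. Reads were aligned to mm10 with TopHat2 and counted with HTSeq, per the submitters' processing notes. Their versions are not given in the sources used here. Values deposited are raw read counts per UCSC identifier, with no normalization by the authors. The 5 HTSeq summary rows were left out of totals and tests.

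CPM was computed from column sums. Tests used edgeR 4.0.16 in R 4.3.3 on the deposited counts, with filterByExpr by group, TMM scaling and the robust quasi-likelihood test over all 18 libraries. DESeq2 1.42.0 was an alternative, as were other scalings, limits, offsets, blocks and left-out replicates. Each SE was derived from the F statistic and the log2 change. The scripts were tested on simulated data without replicate effects. There the replicate block within oxygen called 9% of 2-fold and 71% of 4-fold changes between 0 h and 12 h in hypoxia. The simulated spread came from the fit without a block, so these shares do not show what the block does in the real libraries. Only identifiers above a limit on mean count were changed, so the shares do not cover members with few reads. No library was treated as a duplicate, since pairs within groups gave a chi-square of 15.3 to 149 times its degrees of freedom.

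Deviations from group means of same-numbered libraries of an oxygen condition correlated at 0.2625 to 0.662 in hypoxia and 0.437 to 0.720 in normoxia. The numbers were therefore taken to pair samples within oxygen. Libraries with different numbers correlated at −0.614 to 0.2631 in hypoxia, where the ranges just overlapped, and at −0.563 to 0.0531 in normoxia. In hypoxia each number was also a lane, so pairing of samples and lane cannot be told apart there. In normoxia the same held for replicate 3, which was lane 7. Between oxygen conditions same-numbered libraries correlated at −0.15 to 0.51, which did not meet the limit of 0.1 in every pair. Intervals and limits of detection cover counting error only.

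The member with the highest mean CPM and the one with the lowest ratio are printed by identifier, and ranks 2 to 10 in mean CPM and the lowest ratios by rank. The members called over time and the member ranked 100 were added after their values were seen. The members and lists were chosen with earlier results of these data known.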

Additional observations from a re-analysis of the deposited data

Results flagged for a closer look

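The member ranked 8 by mean CPM is listed because its change over time differed between oxygen conditions by −0.79 on the log2 scale with the replicate block within oxygen. The call did not hold when any 1 replicate number was left out.

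Another 2 values are listed because all 3 replicate numbers moved one way in hypoxia and the other way in normoxia between 12 h and 0 h, untreated. They came from a search over the members' share of counts with and without the 10 highest, their median level, and single members. The single members were the 10 highest and uc009gyk.2, and changes with IL-6 were searched too. With so many values searched, some such opposite moves can arise by chance. The share of counts in the 199 members outside the 10 highest differed at 12 h by 0.0145 ± 0.0117 percentage points in hypoxia and by −0.0372 ± 0.0284 in normoxia (SD, n = 3 each), a difference of 0.0517 that was not tested. Its direction depends on the scale. On column sums the median ratio of 12 h to 0 h over members was 1.02 in hypoxia and 1.01 in normoxia, beside 1.08 and 0.987 over all 10072 identifiers. The median log2 changes of members with TMM scaling, given above, had the opposite signs to this share. The member ranked 7 differed at 12 h by −13.4 ± 6.41 CPM in hypoxia and by 83.4 ± 44.3 CPM in normoxia (SD, n = 3 each), a difference of −96.9 CPM. On the log2 scale the difference between oxygen conditions was −0.38 (SE 0.36) without a block and −0.39 (SE 0.13) with the replicate block within oxygen, with adjusted p-values of 1.00 and 0.274 (edgeR), so it was not called.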

How the results depend on the processing

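The number of members depended on the limits: 33 met a ratio of 0.25 or less and 408 a ratio of 0.67 or less. Leaving out 1 replicate number in every group gave 235 to 363 members, the highest without replicate 3, of which 185 were among the 209. Without hypoxia replicate 3 alone, a setting added after seeing the data, there were 339 members, with 193 of the 209. TMM scaling gave 175 members (174 shared) and DESeq2 size factors 168 (167 shared). Under these scalings the median log2 ratio of all identifiers was 0.04, against −0.01 with column sums. Of the 209 members, 192 with TMM scaling and 188 with DESeq2 size factors were still without overlap between oxygen conditions. The rest overlapped, so their lower level in every hypoxia library depended on the scaling. All 209 stayed below a ratio of 1, a limit far above the one that chose them. The median ratio was 0.376 to 0.409 under the scalings, the offset of 1 CPM, lane 3 alone and the left-out replicates. Single hypoxia replicates and lane 6 gave 0.355 to 0.398.

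The replicate block within oxygen called 8, 1 and 1 members in hypoxia, in normoxia and for the difference, against 0 for each without it. A single block across oxygen conditions called 0 for each, and that block with lane called 3 in hypoxia (0.35% of all identifiers called). Added after seeing the data, the block within oxygen without replicate 1 called 1 in hypoxia, without replicate 2 it called 3, and without replicate 3 it called 12, 5 and 6. The calls over all identifiers moved too, at 17, 95 and 257 in hypoxia, against 254 with all replicates, and at 63 in normoxia and 67 for the difference without replicate 3, against 19 and 15. The unblocked fits without 1 library called 0 members in each case. The causes were not tested.

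For uc009gyk.2 the direction of the change over time is not settled at this depth. Its log2 change in hypoxia, −0.03, was 0.54 without hypoxia 0 h replicate 1, 0.31 without 12 h replicate 1 and 0.41 without 12 h replicate 3, and over all 6 libraries left out in turn it was −1.88 to 0.54. In normoxia it was −0.21, and 0.54 without 0 h replicate 2 and 0.09 without 12 h replicate 3, with a range of −0.57 to 0.54. For uc009vey.1 the ranges were −0.40 to −0.07 in hypoxia and −0.31 to −0.05 in normoxia.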

Other observations

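The mirror image of the rule, with the ratio inverted, was met by 114 identifiers that were higher in every hypoxia library. Before the limit on the ratio, 151 identifiers were higher without overlap, against 501 lower without overlap. With the full rule the numbers were 114 raised and 209 lowered, and this imbalance changed with the libraries used and with the scaling. Leaving out libraries also makes the condition of no overlap easier to meet. Without replicate 1 in every group 142 were raised and 271 lowered, and without replicate 2 the numbers were 144 and 235. Without replicate 3 in every group, 318 identifiers met the mirrored rule and 363 the rule itself. Without hypoxia replicate 3 alone the numbers were 242 and 339. The cause was not tested. With TMM scaling and all replicates the numbers were 135 raised and 175 lowered, and with DESeq2 size factors 128 and 168.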
